A study of Mus musculus with 15 samples.

Results

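The mouse genome holds 4 Hox clusters, HoxA, HoxB, HoxC and HoxD, and the open and closed chromatin of these clusters in hepatocytes is described here. Each cluster was taken as a fixed window of the mm9 genome. HoxA was chr6:52100001-52230000 (130 kb), HoxB chr11:96050001-96240000 (190 kb), HoxC chr15:102740001-102870000 (130 kb) and HoxD chr2:74490001-74605000 (115 kb). Together the windows covered 565 kb of 2472334 kb of autosomes, or 57 steps of 10 kb out of 247224 autosomal steps. The 200 kb on either side of each window served as its flanks. The windows stood for 38 member genes, 10 in HoxA, 10 in HoxB, 9 in HoxC and 9 in HoxD.

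Hepatocytes of 15 mice were profiled by srHC-seq, which sonicates crosslinked chromatin and sorts the DNA by length, and so tells chromatin that resists shearing from chromatin that shears easily. The first group held 5 mice labelled Wt, 3 of them male and 2 female, at postnatal day 14 (P14). The second held 5 P14 mice of genotype Alb-Cre;Ezh1-/-;Ezh2f/f (2 males and 3 females), in which Ezh1 is deleted in every cell and Ezh2 is removed only where the albumin promoter drives Cre, that is, in hepatocytes and their precursors. The third held 5 mice labelled Wt at an age of 2 months (2 males and 3 females). The strain is not given in the sources used here. Each group is represented by 1 deposited map, read as a pool of its mice, in which every stretch carries 1 of 3 classes, het for closed chromatin, int for an intermediate state and euch for open chromatin. The maps hold no signal and no read depth, so no value below has a replicate error, no difference was tested, and the loss of Ezh1 and Ezh2 transcripts and the hepatocyte identity of the cells could not be checked. The autosomes were cut into 121317 domains in the P14 wild-type map, 111567 in the knockout map and 85333 in the 2-month map, and the part of this coarseness in any difference was not tested. The mix of sexes differed between the P14 wild type and the other groups, and its part in any difference was not tested.

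Hox genes encode homeodomain transcription factors that give cells their position along the body axis. Within a cluster they lie in the order of the body regions they pattern, from anterior (low numbers) to posterior (high numbers), and genes of one number in different clusters are paralogues. EZH1 and EZH2 are the alternative catalytic subunits of Polycomb repressive complex 2 (PRC2), which methylates histone H3 at lysine 27, and silent Hox clusters are textbook targets of this complex. Liver, an organ of anterior endoderm, is not among the tissues known for broad Hox expression.

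The gene order came from RefSeq for GRCm38.p6, another build than the maps, so genes were placed by order along the chromosome and not by mm9 position. From low to high coordinate, HoxA runs from Hoxa2 through Hoxa3, Hoxa4, Hoxa5, Hoxa6, Hoxa7, Hoxa9, Hoxa10 and Hoxa11 to Hoxa13, beyond which lies Evx1, itself a homeobox gene. HoxB runs the other way, from Hoxb13 through Hoxb9, Hoxb8, Hoxb7, Hoxb6, Hoxb5, Hoxb4, Hoxb3 and Hoxb2 to Hoxb1, with Skap1 beyond. HoxC runs from Hoxc13 through Hoxc12, Hoxc11, Hoxc10, Hoxc9, Hoxc8, Hoxc6 and Hoxc5 to Hoxc4. HoxD runs from Hoxd13, next to Evx2, through Hoxd12, Hoxd11, Hoxd10, Hoxd9, Hoxd8, Hoxd4 and Hoxd3 to Hoxd1. The annotated span of Hoxb3 contains Hoxb4 and that of Hoxd3 contains Hoxd4, so these pairs cannot be ordered by their starts and are listed in numerical order. The posterior genes thus lie at the high-coordinate end of HoxA and at the low-coordinate end of HoxB, HoxC and HoxD.

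Many promoters bound by PRC2 in other cells are rich in CpG dinucleotides, and the promoters of the members were read for this. The RefSeq table held 24 promoters of 22 of the 38 members, 10 of them from HoxA, 10 from HoxD, 3 from HoxB and 1 from HoxC, so that the pooled values are mostly those of HoxA and HoxD. In the 250 bases before the start site, members had a median of 12.5 CpG (lowest 2, highest 35) and a median GC content of 58.6%. Over all 32851 promoters of the table the medians were 6 CpG and 52.4%. At least 10 CpG were present in 15 of the 24 member promoters (62.5%) and in 37.8% of all promoters. One promoter per cluster is shown as an example, 5′ to 3′, with every CpG in capitals. The paralogues of number 9 were used for HoxA and HoxD, and those of number 4, chosen after the table was seen, for HoxB and HoxC. The coordinates are those of GRCm38.p6 and cannot be set against the mm9 windows.
Hoxa9, chr6:52227371-52227620, minus strand: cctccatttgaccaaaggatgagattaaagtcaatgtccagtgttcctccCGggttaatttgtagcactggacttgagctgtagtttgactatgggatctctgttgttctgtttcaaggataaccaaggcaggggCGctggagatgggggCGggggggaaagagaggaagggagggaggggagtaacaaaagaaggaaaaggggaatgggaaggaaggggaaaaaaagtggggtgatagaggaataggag
Hoxb4, chr11:96318017-96318266, plus strand: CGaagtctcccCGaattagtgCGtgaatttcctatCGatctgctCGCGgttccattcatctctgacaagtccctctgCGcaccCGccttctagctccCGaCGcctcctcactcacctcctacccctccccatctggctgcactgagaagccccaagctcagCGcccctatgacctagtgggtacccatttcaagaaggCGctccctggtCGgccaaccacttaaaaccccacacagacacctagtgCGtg
Hoxc4, chr15:103034145-103034394, plus strand: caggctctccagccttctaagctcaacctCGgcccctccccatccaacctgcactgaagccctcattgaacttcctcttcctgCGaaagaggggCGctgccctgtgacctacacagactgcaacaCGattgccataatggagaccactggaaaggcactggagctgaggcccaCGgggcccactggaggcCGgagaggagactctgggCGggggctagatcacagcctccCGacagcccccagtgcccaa
Hoxd9, chr2:74697513-74697762, plus strand: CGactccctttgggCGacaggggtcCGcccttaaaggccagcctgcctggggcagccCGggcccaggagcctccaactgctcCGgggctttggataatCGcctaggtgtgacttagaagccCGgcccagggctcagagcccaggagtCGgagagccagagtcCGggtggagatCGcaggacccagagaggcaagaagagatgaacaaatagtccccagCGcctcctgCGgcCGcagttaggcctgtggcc
The Hoxa9 stretch held 3 CpG, that of Hoxb4 held 14, that of Hoxc4 held 8 and that of Hoxd9 held 13. The count ran from 3 to 35 over the 10 HoxA promoters, from 2 to 31 over the 10 of HoxD and from 7 to 14 over the 3 of HoxB. The highest counts belonged to Hoxa13, with 35, and Hoxd13, with 31, the most posterior genes of their clusters. The counts did not rise steadily towards that end. Hoxa5 had 28 and Hoxd1, the most anterior HoxD gene, had 24, while Hoxd12 had 10 and the promoters of Hoxd11 had 2 and 20.

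At P14 the wild-type clusters were mostly open, and they differed from one another. Of the 565 kb, 436 kb (77.2%) were euch, 119 kb (21.1%) het and 10 kb (1.77%) int. The corresponding autosomal shares were 42.7%, 45.4% and 11.9%. HoxA was euch over all of its 130 kb, inside a single open domain of 142 kb, chr6:52090001-52232000. HoxD was euch over 98 of 115 kb, HoxC over 100 of 130 kb and HoxB over 108 of 190 kb. An openness score was formed by subtracting the het share from the euch share, so that -1 stands for a wholly closed stretch and 1 for a wholly open stretch. The P14 wild-type score was 1 for HoxA, 0.739 for HoxD, 0.538 for HoxC and 0.168 for HoxB. HoxB was therefore the most closed of the 4, and 76 kb of it were het. Its longest closed domain was 38 kb, chr11:96074001-96112000, towards the Hoxb13 end of the gene order, and its longest open domain was 78 kb, chr11:96112001-96190000.

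HoxA and HoxC stood out from their surroundings more than HoxB did. In P14 wild type the mean score of the 2 flanks was 0.015 for HoxA, so that the cluster lay 0.985 above them. For HoxC the flanks averaged -0.34 and the cluster lay 0.878 above them, with a low-coordinate flank that was 94.0% het. The HoxD cluster lay 0.584 above its flanks. The HoxB cluster lay only 0.0884 above its flanks.

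**Figure D1:**
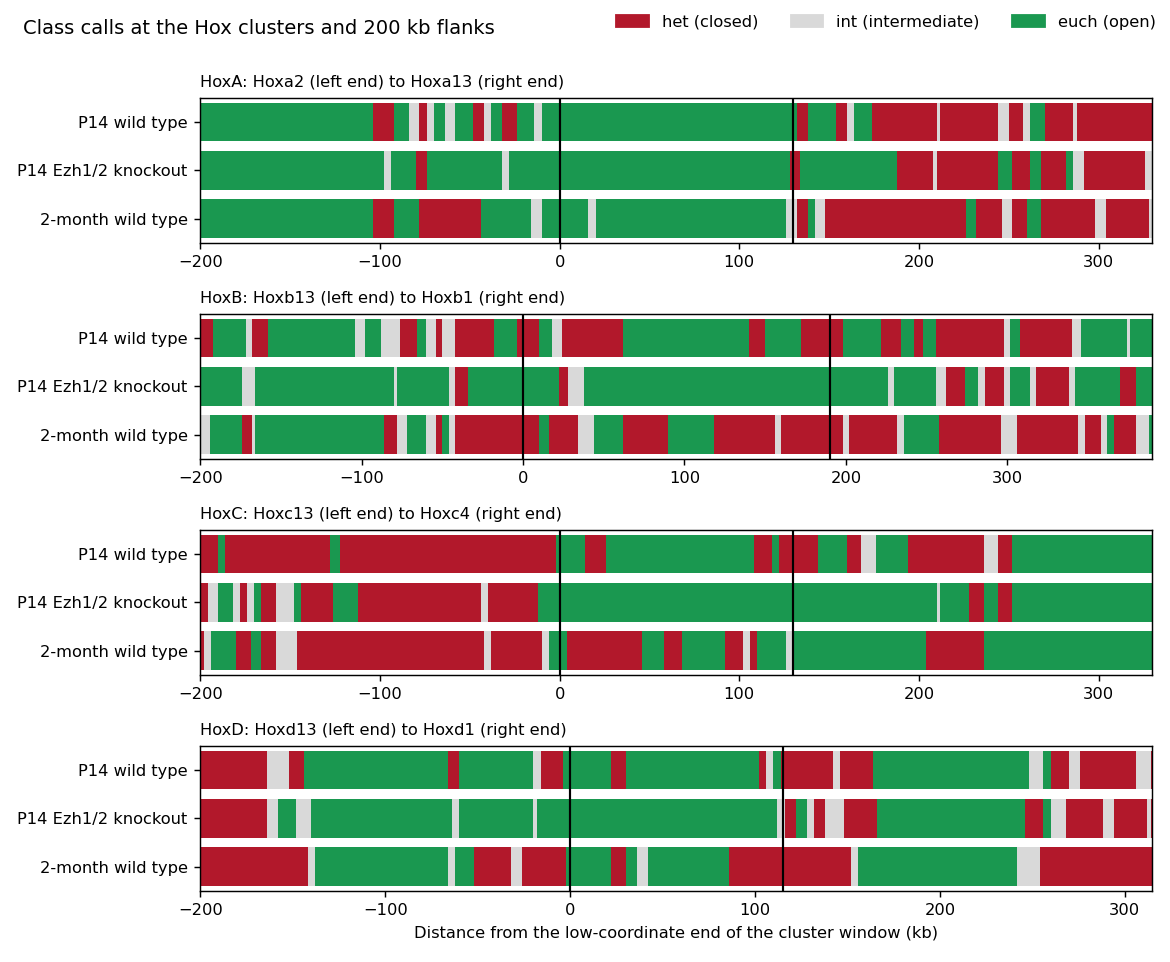
Class calls at the 4 clusters and their 200 kb flanks in each of the 3 maps, by distance in kb from the low-coordinate end of the window; black lines mark the window, red is het, grey int and green euch. HoxA is almost wholly green in all 3 maps, HoxC is entirely green in the knockout, and the red stretches of HoxB, HoxC and HoxD cover 124, 66 and 37 kb at 2 months.

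The comparison of knockout with wild type at P14 addresses what loss of the PRC2 enzymes does to these clusters at a fixed age. In the knockout nearly all Hox chromatin was called open. Het covered 8 kb of the 565 kb (1.42%), against 119 kb in the wild type, and euch covered 544 kb (96.3%). Over all autosomes the het share was 46.0% in the knockout and 45.4% in the wild type. Of the 119 kb that were het in the wild type, 104 kb (87.4%) were euch in the knockout and 11 kb (9.24%) were int. Among all autosomal het bases, 11.0% were euch in the knockout. Of the 436 kb that were euch in the wild type, 2 kb were het in the knockout, a share of 0.459%, against 12.8% of autosomal euch bases.

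The difference was largest in HoxB, with a score of 0.168 in wild type and 0.884 in the knockout, 0.716 higher. Of its 76 closed kb, 62 kb (81.6%) were open in the knockout, and the only closed domain left was 6 kb long, chr11:96072001-96078000. The longest open stretch ran for 188 kb, chr11:96088001-96276000, past the Hoxb1 end of the window. HoxC scored 0.538 in wild type and 1 in the knockout, 0.462 higher. All 30 closed kb of HoxC were open in the knockout, where a single open domain of 222 kb, chr15:102728001-102950000, spanned the cluster from Hoxc13 to Hoxc4. HoxD scored 0.739 and 0.974, 0.235 higher, and 12 of its 13 closed kb were open. An open domain of 130 kb, chr2:74472001-74602000, held nearly all of HoxD in the knockout. HoxA, already fully open, scored 1 in wild type and 0.969 in the knockout, where 2 kb at the Hoxa13 end were het.

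Of the 57 steps of 10 kb, 13 (22.8%) had a score higher by at least 0.5 in the knockout, 7 in HoxB, 4 in HoxC and 2 in HoxD, against 12.0% of all autosomal steps. None of the 57 was lower by at least 0.5, against 12.4% of autosomal steps. Without HoxB the count of higher steps was 6, from 13 steps of HoxA, 13 of HoxC and 12 of HoxD. By cluster, the share of higher steps was 36.8% in HoxB, 30.8% in HoxC, 16.7% in HoxD and 0% in HoxA. The pooled share thus rests largely on HoxB. The starting state matters here, since an open step cannot open further. Of the 11 Hox steps with a wild-type score of -0.5 or below, 10 were higher by at least 0.5 in the knockout, against 17.2% of such autosomal steps. The share was 7 of 8 in HoxB, 2 of 2 in HoxC and 1 of 1 in HoxD. The count thus mostly describes HoxB, and an opening of its region was known when the windows were chosen. All steps of HoxA were open in the wild type and none could count.

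Windows of equal length tiled along the autosomes give the size of these differences a scale. The counts describe size only, since an opening of the region that holds HoxB was known when the Hox windows were chosen. Of 13002 windows of 190 kb, 35 were higher in the knockout by at least as much as HoxB. Of 19010 windows of 130 kb, 786 were higher by at least as much as HoxC, and the 5th to 95th percentile ran from -0.492 to 0.431. Of 21488 windows of 115 kb, 3530 were higher by at least as much as HoxD, and the same percentile range ran from -0.504 to 0.443. HoxD could not have passed the upper end of that range, since it started at 0.739 and the score cannot pass 1. It reached 0.974 in the knockout.

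The values depend on where the window is cut. With the windows narrowed by 20 kb on each side, the HoxC difference was 0.178, since the closed stretches of HoxC lay near its ends. Leaving out all bases closer than 2 kb to an edge in the P14 wild-type map, the HoxD difference was 0.087.

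The opening in the knockout was not limited to the clusters. Pooled over the 8 flanks, the het share was 46.5% in wild type and 27.8% in the knockout, and 244 of 744 het kb (32.8%) were euch in the knockout. Of 160 flank steps of 10 kb, 48 (30%) were higher by at least 0.5 and 4 were lower. The low-coordinate flank of HoxB scored 0.22 in wild type and 0.85 in the knockout, and the high-coordinate flank of HoxC scored 0.2 and 0.83. Both flanks of HoxA were more open in the knockout, by 0.32 and 0.33, while the cluster between them was already wholly open in wild type and could not gain. The HoxB cluster gained 0.206 more than the mean of its flanks, a difference that was -0.104 with flanks of 100 kb. For HoxC the same difference was -0.0735, and for HoxD it was 0.0923, or -0.03 with flanks of 100 kb. The direction of the contrast between cluster and flank in HoxB and HoxD therefore depends on the flank width. No gain beyond the flanks can be stated for HoxB, HoxC or HoxD, and for HoxC and HoxD the contrast could hardly show one. The score cannot pass 1, which HoxC reached in the knockout and HoxD nearly reached, at 0.974. With a gain of at most 0.462 possible, HoxC could not match its flanks, which gained 0.535 on average. Of wild-type het bases, 87.4% in the clusters and 32.8% in the flanks were euch in the knockout. These pools mix the clusters unequally. HoxB gave 62 of the 104 cluster kb, and the low-coordinate flank of HoxC held 188 of the 744 het flank kb. No gain beyond the flanks is read from these shares.

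**Figure D2:**
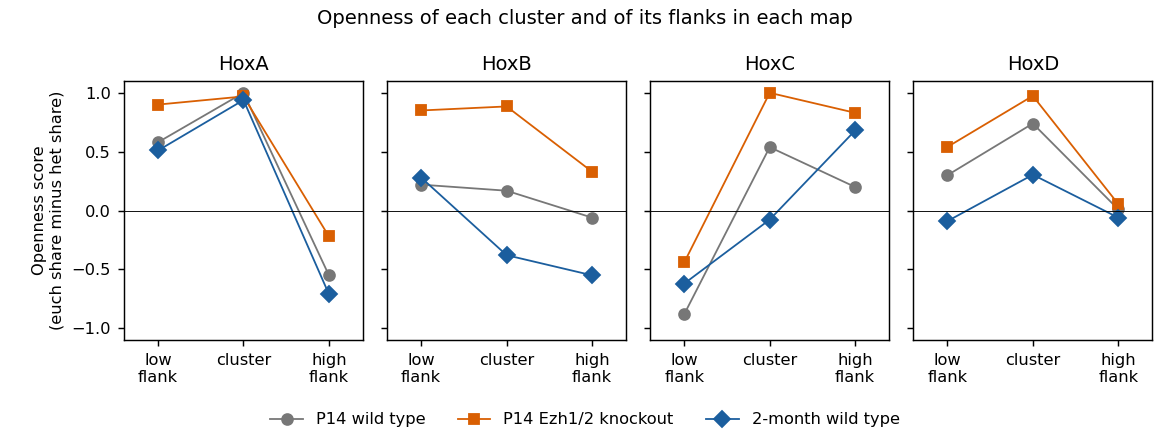
Openness score (euch share minus het share) of the low-coordinate flank, the cluster and the high-coordinate flank in P14 wild type (grey circles), P14 knockout (orange squares) and 2-month wild type (blue diamonds), 1 map each. In HoxB, HoxC and HoxD the cluster is highest in the knockout and lowest at 2 months, while the HoxA cluster stays between 0.938 and 1.

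The comparison of 2-month with P14 wild type addresses how the clusters change as the liver matures. Hox chromatin was more closed at 2 months in HoxB, HoxC and HoxD, and HoxA was nearly as open as at P14. Het covered 227 kb (40.2%) at 2 months against 119 kb (21.1%) at P14, and euch covered 302 kb (53.5%) against 436 kb. The autosomal het share was 46.2% at 2 months. Of the 436 kb that were euch at P14, 142 kb (32.6%) were het at 2 months, against 16.1% of autosomal euch bases. In the opposite direction, 30 of the 119 het kb (25.2%) were euch at 2 months, against 14.2% of autosomal het bases.

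HoxC had the largest difference, with a score of 0.538 at P14 and -0.0769 at 2 months, a difference of -0.615. A closed domain of 42 kb, chr15:102744001-102786000, lay at the Hoxc13 end at 2 months, where the P14 wild type had only 12 closed kb, chr15:102754001-102766000. HoxB scored 0.168 and -0.379, a difference of -0.547, and 70 of its 108 open kb were het at 2 months. Closed domains of 38 kb each, chr11:96168001-96206000 and chr11:96210001-96248000, covered the Hoxb1 end. HoxD scored 0.739 and 0.304, a difference of -0.435. Its closing lay at the Hoxd1 end, where a closed domain of 66 kb, chr2:74576001-74642000, reached out of the window, while 44 kb in the middle, chr2:74532001-74576000, were open. HoxA scored 1 and 0.938, a difference of -0.0615, with 8 kb int and no het.

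At 2 months, 20 of the 57 steps (35.1%) were lower by at least 0.5 than at P14, 8 in HoxB, 8 in HoxC and 4 in HoxD, against 14.2% of autosomal steps. Another 5 (8.77%), 3 in HoxB and 2 in HoxC, were higher by at least 0.5, against 14.1%. By cluster, the share of lower steps was 42.1% of 19 in HoxB, 61.5% of 13 in HoxC, 33.3% of 12 in HoxD and 0% of 13 in HoxA. Without HoxB, or without HoxC, the count of lower steps was 12. Of the 43 Hox steps with a P14 score of 0.5 or above, 17 (39.5%) were lower by at least 0.5, against 20.2% of such autosomal steps. The share was 0 of 13 in HoxA, 8 of 11 in HoxB, 6 of 9 in HoxC and 3 of 10 in HoxD. Declines of the size seen in the clusters were common elsewhere. Of 13002 windows of 190 kb, 1360 were lower by at least as much as HoxB, and the counts were 1748 of 19010 for HoxC and 3281 of 21488 for HoxD.

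HoxC closed while its surroundings were more open at 2 months. The low-coordinate flank of HoxC scored -0.88 at P14 and -0.62 at 2 months, and the high-coordinate flank 0.2 and 0.68. Relative to the mean of its flanks the 2-month minus P14 difference of HoxC was -0.985, or -0.875 against the low flank alone and -1.095 against the high flank alone. The HoxC value without regard to flanks was -0.978 with the window narrowed by 20 kb on each side and -0.235 with it widened, since the bases just outside were more open. Relative to its flanks, HoxB differed by -0.332 between the ages. That value was -0.607 against the low-coordinate flank and -0.057 against the high-coordinate flank, towards Skap1, which itself differed by -0.49. HoxD differed by -0.205 relative to its flanks, or by -0.045 against the flank on the Evx2 side, which itself differed by -0.39.

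**Figure D3:**
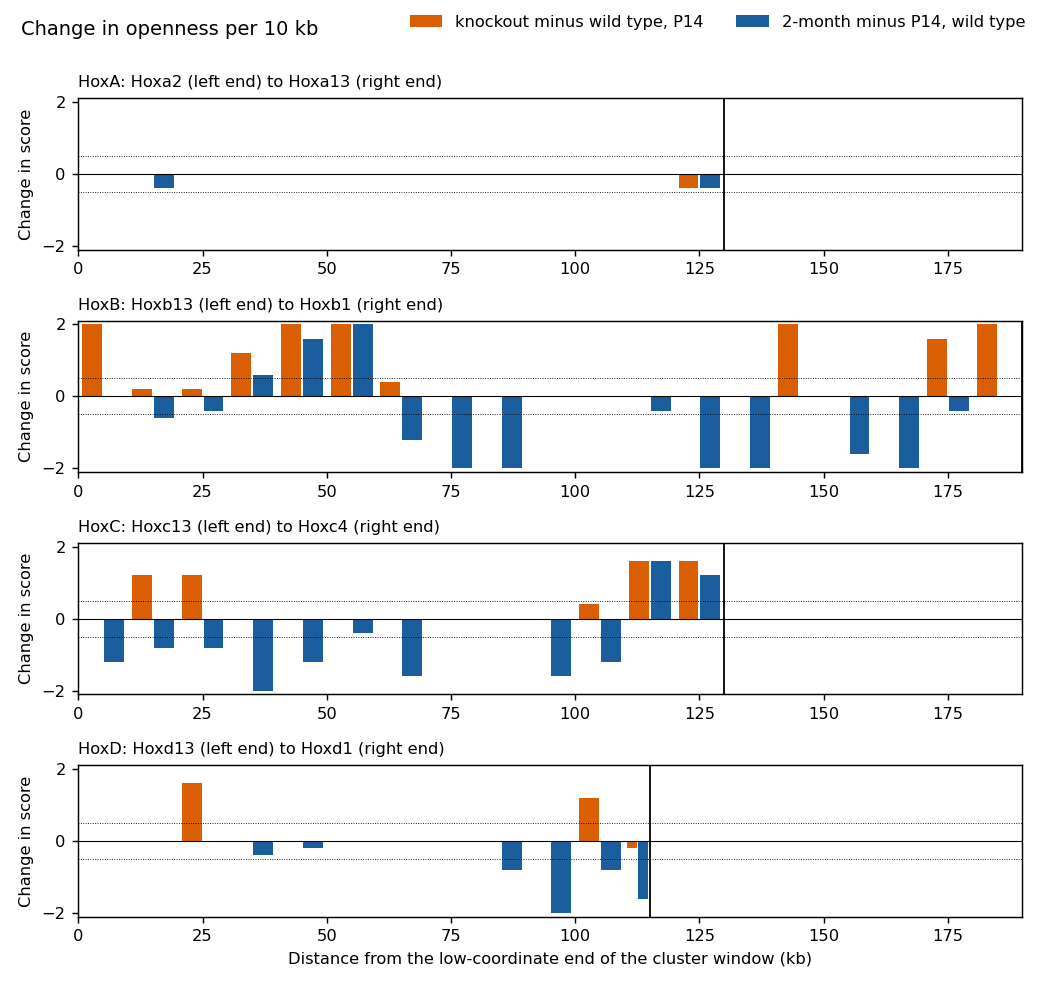
Change in openness score for each step of 10 kb (the last step of HoxD is 5 kb), by distance in kb from the low-coordinate end of the window, for knockout minus wild type at P14 (orange) and 2-month minus P14 wild type (blue); dotted lines mark changes of 0.5 and the black line the end of the window. Orange bars past 0.5 all point up, 13 in all, and blue bars past 0.5 point down in 20 steps and up in 5.

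The closing by 2 months lay in different parts of different clusters. Each window was divided into 3 segments of about equal length. In the middle segment of all 4 clusters, the score was 1 in P14 wild type and 1 in the knockout. At 2 months the middle segment scored 1 in HoxA, 0.897 in HoxD, 0.409 in HoxC and -0.125 in HoxB. In the posterior segment, the P14 wild type scored 1 in HoxA, 0.579 in HoxD, 0.442 in HoxC and -0.619 in HoxB. The posterior segment of HoxB, at the Hoxb13 end, scored 0.651 in the knockout and -0.0794 at 2 months, so that it was more open than in P14 wild type in both maps. The posterior segment of HoxC, at the Hoxc13 end, scored 1 in the knockout and -0.814 at 2 months. In the anterior segment, HoxB (Hoxb1 end) scored 0.111 in P14 wild type, 1 in the knockout and -0.937 at 2 months. The anterior segment of HoxD (Hoxd1 end) scored 0.632, 0.921 and -0.526 in the same order, and that of HoxC (Hoxc4 end) 0.163, 1 and 0.163. Closing by 2 months was thus greatest at the posterior end in HoxC and at the anterior end in HoxD, and in HoxB it covered the middle and anterior segments.

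The P14 wild-type map is the baseline of both comparisons, so their values are set side by side and not correlated. The score in the knockout and at 2 months, relative to that map, differed by 0.716 and -0.547 in HoxB, by 0.462 and -0.615 in HoxC, by 0.235 and -0.435 in HoxD and by -0.0308 and -0.0615 in HoxA. The knockout and 2-month maps can also be set against each other directly, without the shared map, though they differ in both genotype and age, which cannot be told apart there. The 2-month score minus the knockout score was -1.26 in HoxB, -1.08 in HoxC, -0.67 in HoxD and -0.0308 in HoxA. Of 13002 windows of 190 kb, 4 were lower by at least as much as HoxB, and of 19010 windows of 130 kb, 37 were lower by at least as much as HoxC. In HoxD the count was 570 of 21488. These counts also describe size only, since the knockout opening of the region that holds HoxB was known beforehand.

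Of the 57 Hox steps, 27 (47.4%) were lower by at least 0.5 at 2 months than in the knockout, against 11.5% of autosomal steps, and none was higher by at least 0.5, against 11.6%. The lower steps were 14 of 19 in HoxB, 8 of 13 in HoxC, 5 of 12 in HoxD and 0 of 13 in HoxA. Base by base, 212 kb (37.5%) of the clusters were euch in the knockout and het at 2 months, and 0 kb were the reverse. The autosomal shares were 4.88% and 4.97%. Little room was left for higher steps or for the reverse bases, since the knockout clusters scored 0.949 together and only 8 kb of them were het. Their absence was thus nearly fixed in advance and does not show that the difference was one-sided. Of these 212 kb, 140 kb were euch, 64 kb het and 8 kb int in P14 wild type. In the flanks the shares were 18.8% and 1.75%. All 3 maps gave the same class over 93.8% of HoxA, 62.6% of HoxD, 33.8% of HoxC and 20.0% of HoxB, against 65.0% of the autosomes.

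Further away from HoxB and HoxC, the knockout map and the 2-month map were both mostly more open than the P14 wild-type map, which the 2 comparisons share. Between 200 and 1000 kb from the HoxB window, in 16 steps of 100 kb, the score was on average 0.323 higher in the knockout than in P14 wild type and 0.278 higher at 2 months. It was higher in 14 of the 16 steps in each comparison. Around HoxC, 12 such steps lay within the chromosome, which ends sooner on the high-coordinate side. Their mean difference was 0.242 in the knockout and 0.283 at 2 months, with 9 of the 12 steps more open and 3 more closed in the knockout, and all 12 more open at 2 months. Around HoxD the mean was -0.01 in the knockout and -0.318 at 2 months, with 11 of 16 steps more closed at 2 months. Around HoxA the means were 0.0425 and 0.0413. The lower 2-month score of HoxB and HoxC thus sat within surroundings that were more open beyond 200 kb, and that of HoxD within surroundings that were also more closed.

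**Figure D4:**
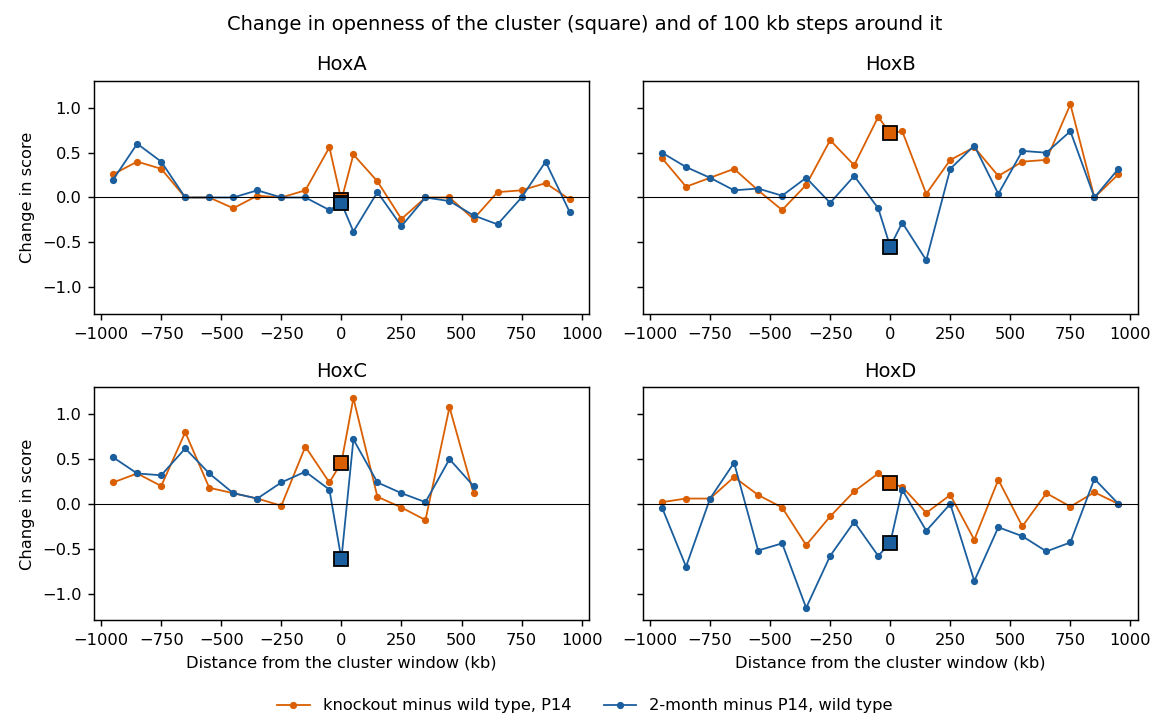
Change in openness score of the cluster window (squares at 0) and of 100 kb steps up to 1000 kb on either side (points), for knockout minus wild type at P14 (orange) and 2-month minus P14 wild type (blue). In HoxB and HoxC the squares lie on opposite sides of 0, at 0.716 and -0.547 and at 0.462 and -0.615, while the more distant points of both colours lie mostly above 0; steps past the chromosome end at HoxC are not drawn.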

How the data were processed

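The deposited data were 9 lists of genome intervals, 1 for each of het, int and euch in each of 3 groups, with class letters and no signal. Per the submitters' processing notes, the authors used bcl2fastq 2.19.0.316, STAR 2.4.2a, bedtools and build mm9. The domain caller and its thresholds are not given in the sources used here. How classes were scaled in each map is therefore unknown, and equal genome shares may come from the calling. Each list was read as its group's pool, since the sample descriptions name it, except that 1 female of 2 months does not name the euch list.

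Intervals were laid on 1 kb steps with Python 3.11.15 and NumPy 2.4.6, tested on simulated data, and drawn with Matplotlib 3.10.9. Scores were computed per window, flank, segment and 10 kb step, and the same over all whole autosomal steps. A step counted as higher or lower at a difference of 0.5. No test was run, since each group is 1 map. The windows, members and thresholds were chosen with earlier results of these data known, among them an opening in the knockout of the region that holds HoxB. All members were named by cluster. The direct comparison of knockout with 2 months, the segments, the equal-length windows and the steps to 1000 kb were added after the data had been seen. Promoters were read from RefSeq (GRCm38.p6).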

Additional observations from a re-analysis of the deposited data

How the results depend on the processing

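Signs held for HoxB, HoxC and HoxD in both comparisons under every window, domain, edge and int setting run, and HoxA stayed within 0.1 of its main value. Of 48 such values, 38 moved by at most 0.1. The others follow, with the cause not tested beyond where the bases lie. With windows narrowed by 20 kb, the knockout difference was 0.52 in HoxB and 0.178 in HoxC, and the age difference -0.978 in HoxC and -0.32 in HoxD. With windows widened, the knockout difference was 0.635 in HoxC and 0.452 in HoxD, and the age difference -0.661 in HoxB and -0.235 in HoxC. Without short domains the age difference of HoxC was -0.492, and off wild-type edges the knockout difference of HoxD was 0.087.

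Differences beyond the flanks were less stable, and 11 of 24 stayed within 0.1. With flanks of 100 kb the knockout values were -0.551 (HoxA), -0.104 (HoxB, reversed from 0.206), -0.248 (HoxC) and -0.03 (HoxD), and the age value of HoxA was 0.198. Since the score cannot pass 1, HoxA could not gain in the knockout and HoxC could not gain as much as its flanks. In the knockout HoxB gave 0.086 against the low flank and 0.326 against the high flank. With age, low and high flanks gave -0.607 and -0.057 for HoxB, -0.875 and -1.095 for HoxC, and -0.045 and -0.365 for HoxD.

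Steps of 5 kb gave 26 higher and 1 lower in the knockout, and 9 higher and 39 lower with age. Steps of 20 kb gave 2 higher and 12 lower with age. The number of steps changes with their length, and no autosomal share is given here at 5 or 20 kb. These counts therefore cannot be set against those at 10 kb. At 10 kb, HoxA and HoxC have 13 steps each, HoxB 19 and HoxD 12. Of autosomal steps of 10 kb, 12.0% were higher in the knockout, and with age 14.1% were higher and 14.2% lower. At that length and without HoxB, 6 Hox steps were higher in the knockout, and with age 2 were higher and 12 lower. Without HoxC, 3 were higher and 12 lower with age. No paired analysis was possible because each group has a single map, and no mouse could be left out. Depth is unknown, so its effect on short domains could not be judged.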

Other observations

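Several domain edges lay at the same position in both wild-type maps, and in the first example below the classes beside the edge were reversed. At position 96112000 in HoxB, the P14 map passed from het to euch (het chr11:96074001-96112000, euch chr11:96112001-96190000), and the 2-month map passed from euch to het (euch chr11:96094001-96112000, het chr11:96112001-96140000). The knockout map had no edge there and was euch from 96088001 to 96276000. The closed domain at the Hoxb1 end stopped at position 96248000 in both wild-type maps, which is 198 kb from the low-coordinate end of the window. Beyond it the P14 map was euch to 222 kb, while the 2-month map was int to 202 kb and het again to 232 kb. In HoxD, an 8 kb closed domain towards the Hoxd13 end, chr2:74512001-74520000, was the same in both wild-type maps and was euch in the knockout. At the Hoxa2 end of HoxA, an open domain began at 52090001 in both wild-type maps. It ended at 52232000 at P14 and at 52116000 at 2 months, and in the knockout the open domain over this end began at 52072001. Apart from chromosome ends, edges lie on a grid of 2 kb, and how often edges coincide elsewhere was not computed.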
